A study of Homo sapiens with 84 samples.

Results

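MHC class I and peptide loading was followed through 9 genes taken by name from the 57964 genes of the count table: the heavy chain genes HLA-B, HLA-C, HLA-E and HLA-F, the light chain gene B2M, the peptide transporter genes TAP1 and TAP2, the loading chaperone gene TAPBP and the transactivator gene NLRC5. The libraries came from NCI-H1373 and NCI-H647, established non-small cell lung cancer lines grown on plates without other cells. Cells received the vehicle DMSO, RBN-2397 (RBN012397 in the sample labels) in doses of 10, 30 and 300 nM, or RBN012337 in doses of 3, 10 and 100 nM, and were taken after 6 or 24 h. Both compounds inhibit PARP7, an enzyme that attaches single ADP-ribose units to proteins and is known to restrain type I interferon signalling. This makes 28 groups with 3 libraries in each and 84 libraries in all, and the labels name no genetic change in either line. The labels speak of triplicate experiments without a culture or day for each. The p-values rest on how far the 3 libraries of a group lie apart, pooled over all groups of a fit, and this can be technical variation.

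A class I molecule is a heavy chain joined to beta-2-microglobulin and a short peptide. Peptides cut by the proteasome are pumped into the endoplasmic reticulum by the TAP1-TAP2 transporter, and tapasin, the product of TAPBP, holds the empty heavy chain beside it until a peptide binds. HLA-B and HLA-C show peptides to CD8 T cells, HLA-E is read mainly by natural killer cells, and NLRC5 drives transcription of the heavy chains, B2M and TAP1. Interferons induce most of these genes through IRF and related factors, and loss of the pathway is a known way for tumours to avoid T cells.

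Of the 9 genes, 7 lie on chromosome 6 of GRCh38, in the MHC region. HLA-F (ENSG00000204642.13) spans 29722775 to 29738528, HLA-E (ENSG00000204592.8) 30489467 to 30494205, HLA-C (ENSG00000204525.16) 31268749 to 31272130 and HLA-B (ENSG00000234745.10) 31269491 to 31357188. TAP2 (ENSG00000204267.13) spans 32821833 to 32838780, TAP1 (ENSG00000168394.11) 32845209 to 32853978 and TAPBP (ENSG00000231925.11) 33299694 to 33314387. B2M (ENSG00000166710.17) lies on chromosome 15 from 44711487 to 44718877 and NLRC5 (ENSG00000140853.15) on chromosome 16 from 56989485 to 57083531. The annotated span of HLA-B runs over HLA-C on the same strand, and that of TAP2 over AL669918.1. Within the last 400 bases of the annotated transcripts, where 3' libraries are read, 15.7% of the 31-base words of HLA-B, 19.3% of those of HLA-C and 4.05% of those of HLA-F also occur in another gene, against 0% for the other 6. For HLA-B and HLA-C it is therefore uncertain which of the near-identical chains some of the reads came from.

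The promoters are shown because several members share letters that interferon-responsive factors are known to bind. RefSeq windows on GRCh38.p14, from 250 bases before to 50 after the start, were found for 7 of the 9 genes, and HLA-E and NLRC5 had none. Both strands were searched, and 3 of the motifs searched are given. The core of the interferon-stimulated response element, GAAA followed after any 2 bases by GAAA, was in the windows of 5 of these 7 (HLA-F, B2M, TAP1, TAP2 and TAPBP), and in 3.57% of all 35116 windows. The NF-kB letters, GGG followed after any 5 bases by CC, were in 6 of 7, against 58.7% of all windows, and the Y box CCAAT in 5 of 7, against 34.6%. Capitals mark the NF-kB letters in HLA-B and HLA-C and the response element core in the others, and each run is written 5' to 3' on the gene's strand. A match says only that the letters are there. Near matches were not searched, so a run without a match, as in HLA-B and HLA-C, does not show that the element is absent.

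HLA-B, chr6:31357220-31357369, minus strand: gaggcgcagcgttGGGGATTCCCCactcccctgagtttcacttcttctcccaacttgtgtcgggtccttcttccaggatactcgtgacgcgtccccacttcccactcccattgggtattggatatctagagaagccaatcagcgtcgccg
HLA-C, chr6:31272133-31272282, minus strand: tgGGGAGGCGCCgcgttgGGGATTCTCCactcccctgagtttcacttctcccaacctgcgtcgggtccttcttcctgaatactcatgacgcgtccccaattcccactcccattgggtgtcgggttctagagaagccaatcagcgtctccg
B2M, chr15:44711337-44711486, plus strand: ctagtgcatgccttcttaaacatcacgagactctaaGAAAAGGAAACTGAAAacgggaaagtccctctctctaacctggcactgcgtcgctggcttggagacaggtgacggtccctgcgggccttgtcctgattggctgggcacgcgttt
TAP2, chr6:32838781-32838930, minus strand: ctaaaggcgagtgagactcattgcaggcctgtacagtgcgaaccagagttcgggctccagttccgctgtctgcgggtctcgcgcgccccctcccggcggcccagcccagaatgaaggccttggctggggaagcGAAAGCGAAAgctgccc
TAP1, chr6:32853815-32853844, minus strand: ggccgcTTTCGATTTCGCTTTCccctaaat
TAPBP, chr6:33314079-33314108, minus strand: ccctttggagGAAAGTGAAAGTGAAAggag

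The response element core began 144 and 138 bases before the start in B2M, 134 and 128 in TAP1 on the opposite strand, 58 in TAP2 and 20 and 14 in TAPBP. The start meant here is that of the RefSeq window. For TAP1 and TAPBP the gene spans given above begin upstream of it, so their printed runs lie inside those spans. HLA-B and HLA-C both carried the NF-kB letters, beginning 177 and 176 bases before the start in HLA-B and 188 and 172 in HLA-C.

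Total counts ran from 630654 to 6938453 per library. The library with the fewest, replicate 3 of DMSO at 24 h in NCI-H1373, lies in the reference group of every 24 h comparison with DMSO in that line. Levels are given as CPM, counts scaled to the same library total for every library. They are compared between libraries and not between genes. Of 9 markers of lung epithelium and tumour lines, 7 in NCI-H1373 and 4 in NCI-H647 had a median of at least 5 CPM. Of 10 immune markers, CD68 alone reached that level in either line, PTPRC and CD3E were at a median of 0, and none of 4 endothelial or 5 fibroblast markers reached it.

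The classical heavy chains HLA-B and HLA-C were read in every library and had their highest group mean after RBN-2397 at 300 nM for 24 h, in both lines, and neither passed the test there. HLA-B at 24 h in NCI-H1373 stood at 97.1, 169 and 50.2 CPM in the DMSO libraries and at 99.3, 235 and 189 CPM after RBN-2397 at 300 nM. The first treated library lay inside the DMSO range and the other two above it. The log2 difference was 0.69 ± 0.29 (SE, n = 3 per group, adjusted p = 0.122), with a 95% interval from 0.10 to 1.28. In NCI-H647 HLA-B stood at 69.4, 127 and 36.8 CPM in DMSO and at 144, 104 and 180 CPM after this dose. Here 1 of the 3 treated libraries lay inside the DMSO range, and the log2 difference was 0.83 ± 0.32 (adjusted p = 0.147). Both values gained a call when DMSO replicate 2, the highest DMSO library, was left out (1.18, adjusted p = 0.016, and 1.40, adjusted p = 0.0418). Without replicate 3, the lowest, they fell to 0.39 and 0.54 (adjusted p = 0.426 and 0.495).

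HLA-C at 24 h in NCI-H647 was 173, 266 and 76.4 CPM in DMSO and 254, 256 and 334 CPM after RBN-2397 at 300 nM, a log2 difference of 0.68 ± 0.27 (adjusted p = 0.163). A single treated library exceeded the whole DMSO range. Without DMSO replicate 2, the highest, the difference was 1.16 (adjusted p = 0.0428), and without replicate 3, the lowest, it was 0.36 (adjusted p = 0.599). In NCI-H1373 the same comparison gave 57.4, 58.3 and 22.5 CPM in DMSO and 54.3, 73.6 and 59.8 CPM after treatment, a log2 difference of 0.37 ± 0.30 (adjusted p = 0.484). Over the other HLA-C groups, means ran from 44.6 ± 9.12 CPM (SD, RBN012337 at 10 nM for 24 h) upward in NCI-H1373 and from 172 ± 95 CPM (DMSO at 24 h) upward in NCI-H647. In bulk RNA, a change in every cell and a change in some cells cannot be told apart.

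HLA-E, the ligand of the CD94 receptors of natural killer cells, and HLA-F, a chain with a narrower tissue range, gave no call against DMSO. HLA-E at 24 h in NCI-H1373 was 162, 182 and 48.5 CPM in DMSO, and its 18 treated libraries ran from 73.8 to 171 CPM with a median of 115, so none lay outside the DMSO range. The mean of the 6 treatments was -0.18 ± 0.20 from DMSO on the log2 scale (adjusted p = 0.643). Without the thinly read DMSO replicate 3 it was -0.53 (adjusted p = 0.039), and without replicate 2 it was 0.10. After RBN012337 in that line HLA-E was at 106, 112 and 88.0 CPM at 3 nM and at 148, 171 and 166 CPM at 100 nM. The log2 difference of 0.67 ± 0.27 did not pass (adjusted p = 0.234), in a comparison that called 0.125% of all genes. This comparison was added after levels had been seen. The ranges of these 2 doses do not overlap, and the share of all genes without overlap was not counted.

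HLA-F held 353 counts over all 84 libraries. In 18 of them it had no count, which allows up to 0.591 to 5.2 CPM, depending on the library (3 counts) and so does not show absence. It was too low to be tested in NCI-H1373, where its median was 0.664 CPM. In NCI-H647 it had a median of 1.35 CPM and a highest group mean of 2.73 ± 2.23 CPM, and its 95% intervals against DMSO, such as -0.88 to 2.88 for RBN-2397 at 300 nM for 24 h, exclude few sizes.

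**Figure D1:**
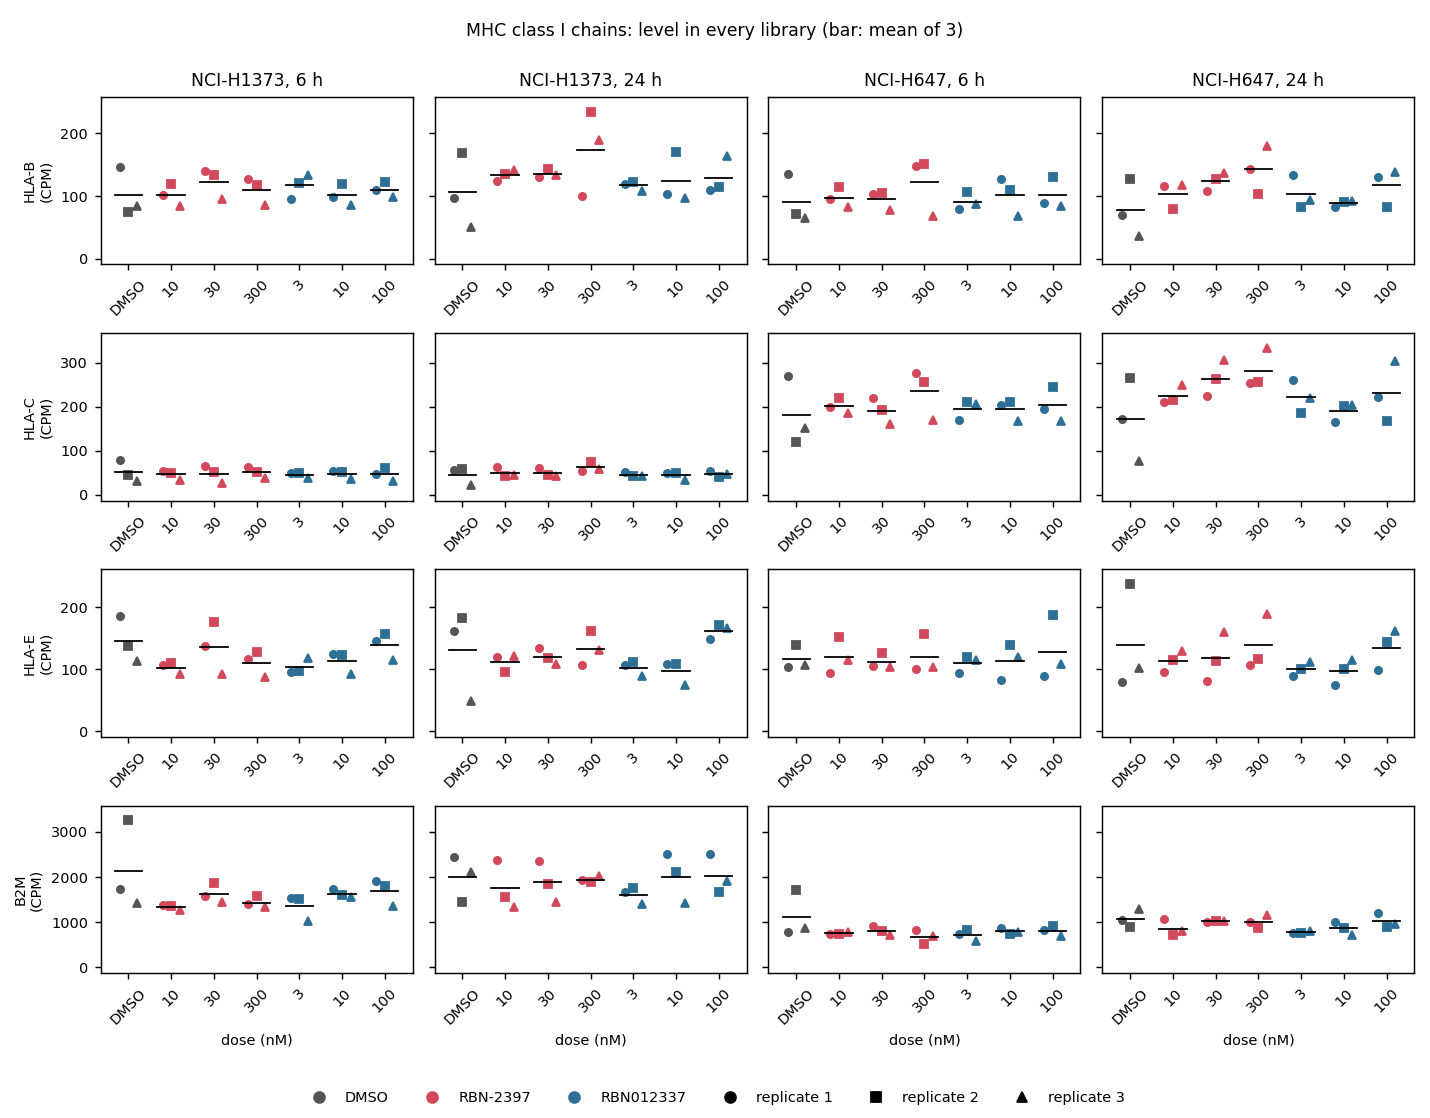
Levels in CPM (vertical axes) of HLA-B, HLA-C, HLA-E and B2M (rows) by dose in nM (horizontal axes) for each line and time (columns), 1 point per library, a bar at the mean of 3, colour for the compound and shape for the replicate. For HLA-B at 24 h in NCI-H1373 the DMSO points run from 50.2 to 169 CPM, and 3 of the 18 treated points lie above them.

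B2M, the light chain shared by all class I molecules, was the member nearest to a call at 6 h, on the lower side, in both lines. In NCI-H647 at 6 h the DMSO libraries held 784, 1716 and 865 CPM, and the 18 treated libraries ran from 518 to 920 CPM with a median of 760. All treated libraries were under the second DMSO library and 10 were under all 3. The mean of the 6 treatments was -0.59 ± 0.16 from DMSO on the log2 scale (adjusted p = 0.23). In NCI-H1373 the DMSO libraries held 1735, 3256 and 1435 CPM and the treated ones 1027 to 1911 CPM, a difference of -0.50 ± 0.18 (adjusted p = 0.157). DMSO replicate 2 was the high library in both lines. Without it the differences were -0.06 in NCI-H1373 and -0.12 in NCI-H647. Without another DMSO library they grew past the threshold, to -0.74 in NCI-H1373 (replicate 3 left out, adjusted p = 0.0421) and -0.80 in NCI-H647 (replicate 1 left out, adjusted p = 0.00778).

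At 24 h the log2 difference of B2M from DMSO, over the 6 treatments, was -0.11 ± 0.18 in NCI-H1373 and -0.25 ± 0.16 in NCI-H647 (adjusted p = 0.793 and 0.414). Over the whole series its group means ran from 1335 ± 49.9 to 2142 ± 976 CPM in NCI-H1373 and from 677 ± 154 to 1122 ± 516 CPM in NCI-H647, and in both lines the top of the order was DMSO at 6 h.

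TAP1, the transporter subunit most responsive to interferon, had its lowest group means at 6 h and its highest at 24 h in both lines. In NCI-H1373 at 24 h the DMSO libraries held 35.4, 29.1 and 8.66 CPM, and RBN012337 at 100 nM gave the highest group, with 42, 34.4 and 42.8 CPM. Of these 3 libraries, 2 exceeded the DMSO range, and the log2 difference was 0.57 ± 0.32 (adjusted p = 0.965). In NCI-H647 the DMSO libraries held 13.3, 46.6 and 12.6 CPM and those of RBN-2397 at 300 nM 39.2, 27.2 and 69.9 CPM, a difference of 0.82 ± 0.41 (adjusted p = 0.287). The second DMSO library lay above 2 of the 3 treated ones. Without it the difference was 1.80 (adjusted p = 0.0432). Without DMSO replicate 1 or 3 it was 0.54 or 0.58 (adjusted p = 0.501 and 0.617).

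TAP2, the partner subunit, had group means from 10.2 ± 3.42 to 16.9 ± 5.45 CPM in NCI-H1373 and from 3.21 ± 1.21 to 6.68 ± 1.36 CPM in NCI-H647. The RBN-2397 group at 300 nM was the lowest in NCI-H1373 and the highest in NCI-H647, both at 24 h, and against DMSO neither passed (-0.22 ± 0.34, adjusted p = 0.758, and 0.19 ± 0.36, adjusted p = 0.845). TAPBP, which encodes tapasin, had its highest mean after RBN-2397 at 300 nM for 24 h in NCI-H1373, with 75.6, 119 and 102 CPM against 68.9, 95.6 and 31.2 CPM in DMSO (0.54 ± 0.29, adjusted p = 0.226). In NCI-H647 it stayed within 63.9 ± 13.8 to 83.0 ± 13.2 CPM over the 14 group means.

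NLRC5, the transactivator of class I promoters, had its highest group mean after RBN-2397 at 300 nM for 24 h in both lines, and no call. In NCI-H647 at 24 h the DMSO libraries held 4.01, 3.45 and 1.65 CPM and those of this dose 6.67, 7.16 and 11.6 CPM, with no overlap. The log2 difference was 1.37 ± 0.56 (adjusted p = 0.168), in a comparison that called 3.38% of all genes. Of all 18 treated libraries there, 12 exceeded every DMSO library and none fell under them. In NCI-H1373 the same dose gave 3.54, 10.2 and 14.6 CPM against 4.25, 3.07 and 3.46 CPM in DMSO, so 2 of 3 lay above, and the difference was 1.26 ± 0.55 (adjusted p = 0.134). Of the 18 treated libraries there, 9 lay above and 5 below all DMSO libraries, and RBN012337 at 10 nM was at -0.58 ± 0.60 (adjusted p = 0.708). These levels rest on few counts: NLRC5 had 1267 counts in the whole series, and 2 libraries had none.

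**Figure D2:**
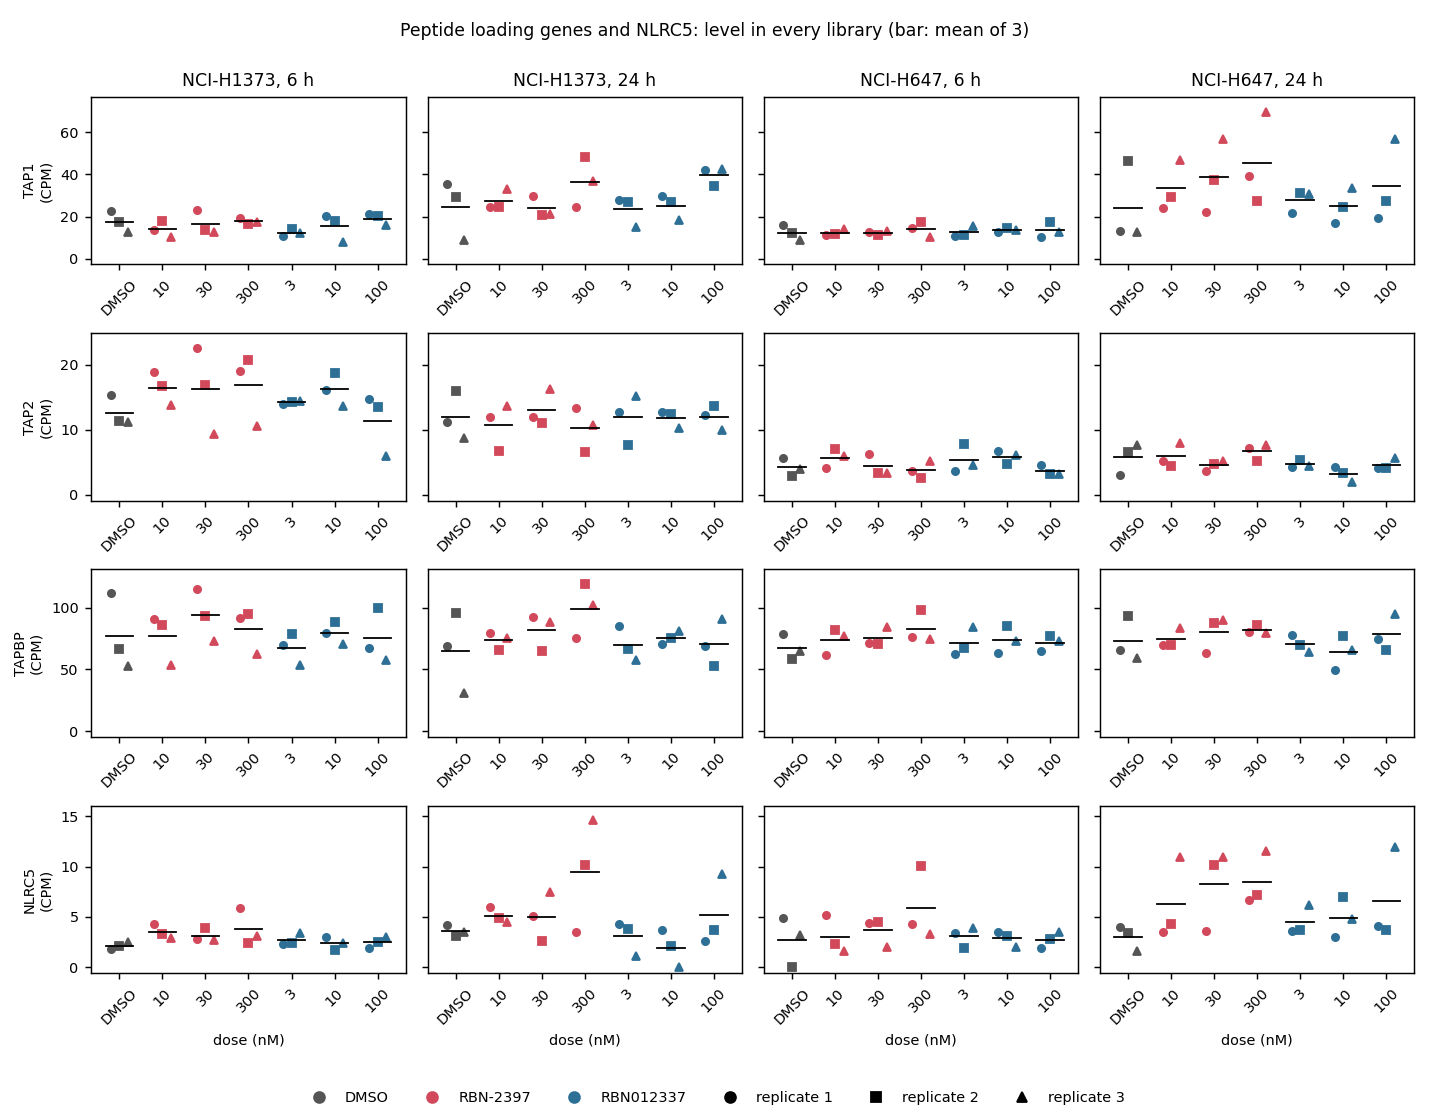
Levels in CPM (vertical axes) of TAP1, TAP2, TAPBP and NLRC5 (rows) by dose in nM (horizontal axes) for each line and time (columns), 1 point per library, a bar at the mean of 3, colour for the compound and shape for the replicate. The median treated TAP1 point is higher at 24 h than at 6 h (27.4 against 16.2 CPM in NCI-H1373, 30.0 against 12.8 CPM in NCI-H647), with ranges that overlap, and the NLRC5 points of RBN-2397 at 300 nM in NCI-H647 at 24 h (6.67 to 11.6 CPM) lie above the 3 DMSO points.

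The question whether inhibition of PARP7 moved these genes was tested for every line and time against its own 3 DMSO libraries. No member was called in any of the 24 single treatments, which make 204 member tests with log2 differences from -0.95 to 1.37 and adjusted p from 0.122 to 1. The edgeR quasi-likelihood test gave an unadjusted p under 0.05 in 18 of the 204, and DESeq2 called 1 of them, B2M after RBN-2397 at 300 nM for 6 h in NCI-H647 (-0.78, adjusted p = 0.0471). Of all genes, the 24 h comparisons in NCI-H1373 called 7.33%, 2.16% and 11.9% after RBN-2397 at 10, 30 and 300 nM, and 8.5%, 2.68% and 0.195% after RBN012337 at 3, 10 and 100 nM. Those in NCI-H647 called 1.8%, 0.94% and 3.38%, and 0.676%, 0.176% and 0.101%, in the same order of doses. At 6 h the shares were 0.312%, 0.0234%, 1.61%, 0.468%, 0.195% and 0% in NCI-H1373, and 0.00676% for RBN-2397 at 10 and 300 nM with 0% for the other 4 in NCI-H647. The count of 0 members called is read against these small shares: at the largest, 11.9%, about 1 call among 8 members would match the background.

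With the 6 treatments averaged, 0 of 8 members were called at 6 h and at 24 h in NCI-H1373, and 0 of 9 at 6 h and at 24 h in NCI-H647. The same comparisons called 1.16%, 12.1%, 0.0135% and 4.98% of all genes, in that order. The unadjusted edgeR p was under 0.05 for B2M at 6 h in each line and for NLRC5 at 24 h in NCI-H647 (0.97 ± 0.47, adjusted p = 0.235), and DESeq2 called B2M at 6 h in NCI-H647 (-0.62, adjusted p = 0.0479) and none in the other 3. The median log2 difference of the members was -0.04, 0.07, 0.04 and 0.39 in that order, beside 0.01, -0.01, -0.00 and -0.02 over all genes. The 0.39 at 24 h in NCI-H647 is made of NLRC5, HLA-B (0.49 ± 0.25), HLA-C (0.42 ± 0.22), HLA-F (0.41 ± 0.77) and TAP1 (0.39 ± 0.33) on the higher side, TAPBP at 0.01 ± 0.15, and B2M, TAP2 and HLA-E on the lower side. The intervals allow sizeable differences either way: for HLA-B in that comparison from -0.03 to 1, for TAP1 from -0.27 to 1.06. Leaving out a replicate moved HLA-B there between 0.08 and 1.16, called at the upper end without all libraries of replicate 2 (adjusted p = 0.0436), and NLRC5 between 0.37 and 1.41. In NCI-H1373 at 24 h, without DMSO replicate 3, HLA-B was at 0.02 against 0.31 with it, HLA-C at -0.22 against 0.04, TAP1 at -0.17 against 0.10 and TAPBP at -0.08 against 0.20. HLA-E was then called lower, at -0.53 (adjusted p = 0.039) against -0.18 with that library. After RBN-2397 at 300 nM in that line HLA-B was at 0.39 without it against 0.69 and TAPBP at 0.27 against 0.54, and after RBN012337 at 100 nM TAP1 was at 0.30 against 0.57.

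**Figure D3:**
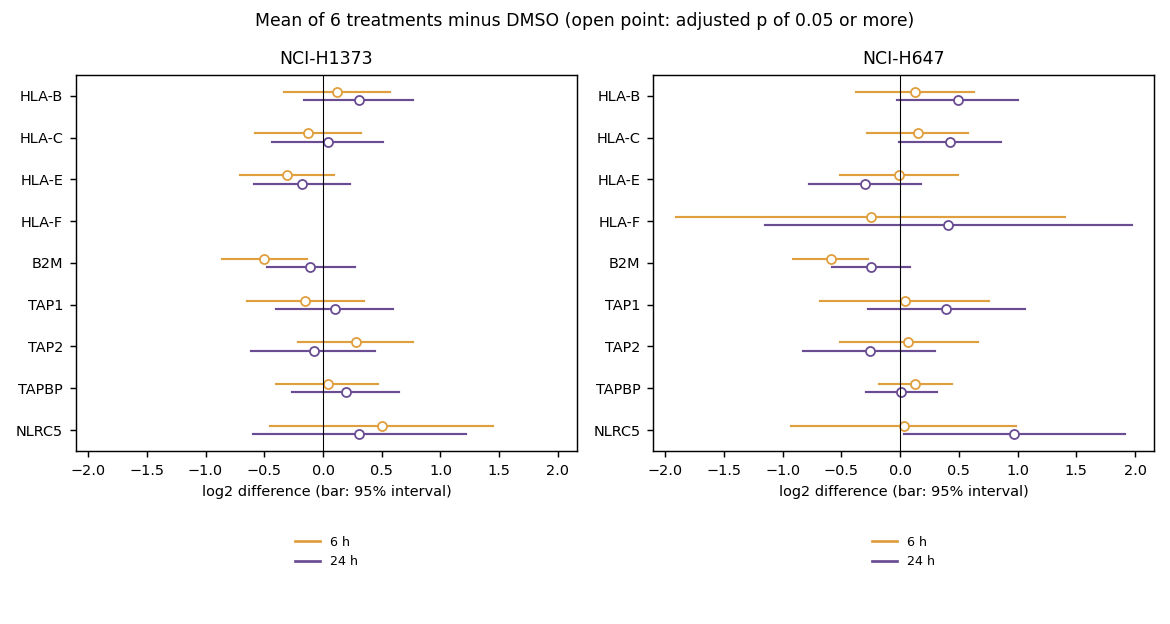
Log2 difference of the mean of the 6 treatments from DMSO (horizontal axis) for each member (vertical axis) at 6 h and 24 h, with NCI-H1373 on the left and NCI-H647 on the right; bars are 95% intervals and open points did not pass the test. All points are open, and B2M at 6 h (-0.50 and -0.59) is the one member whose interval lies below 0 in both lines.

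The vehicle libraries themselves differed widely in these genes. At 24 h the median standard deviation of log2 CPM among the 3 DMSO libraries was 0.80 over the tested members in NCI-H1373 and 0.83 in NCI-H647, against 0.53 and 0.47 over all tested genes. In the treated groups at that time the member medians lay between 0.22 and 0.41. The DMSO spread exceeded that of all 6 treated groups for 5 of 8 members in NCI-H1373 (HLA-B, HLA-C, HLA-E, TAP1 and TAPBP) and 6 of 9 in NCI-H647 (the same 5 and TAP2), and for 37.0% and 39.5% of all tested genes. At 6 h it did so for 4 of 8 and 4 of 9 members, and for 29.5% and 31.8% of genes. The edgeR tests use a single estimate of the spread per gene over all groups of a fit. Where the DMSO libraries lie further apart than that, standard errors and intervals against DMSO can be too narrow.

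Most members ranked the DMSO replicates alike at 24 h. There replicate 2 was the highest DMSO library for 5 of 8 members in NCI-H1373 and 6 of 9 in NCI-H647, and replicate 3 the lowest for 6 in each line. For all tested genes these shares were 33.3% and 37.3% for the highest and 45.8% and 36.2% for the lowest. The exceptions at the lower end were B2M and NLRC5 in NCI-H1373, lowest in replicate 2, and in NCI-H647 TAP2 and HLA-E, lowest in replicate 1, and B2M, lowest in replicate 2. TAP1 in NCI-H647 gives the size: 46.6 CPM in replicate 2 beside 13.3 and 12.6 CPM. At 6 h replicate 1 was the highest for 6 members in each line, and B2M went another way, with its highest value in replicate 2. At 24 h replicate 3 was also the DMSO library with the fewest counts, 630654 in NCI-H1373 and 1884355 in NCI-H647. Replicate 1 at 6 h had the most counts in each line (5523112 and 6938453), and so had replicate 2 at 24 h in NCI-H647 (4862144). In NCI-H1373 at 24 h replicate 2 had fewer counts (1622874) than replicate 1 (3610536). The part of depth in the spread of the DMSO libraries was not tested.

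**Figure D4:**
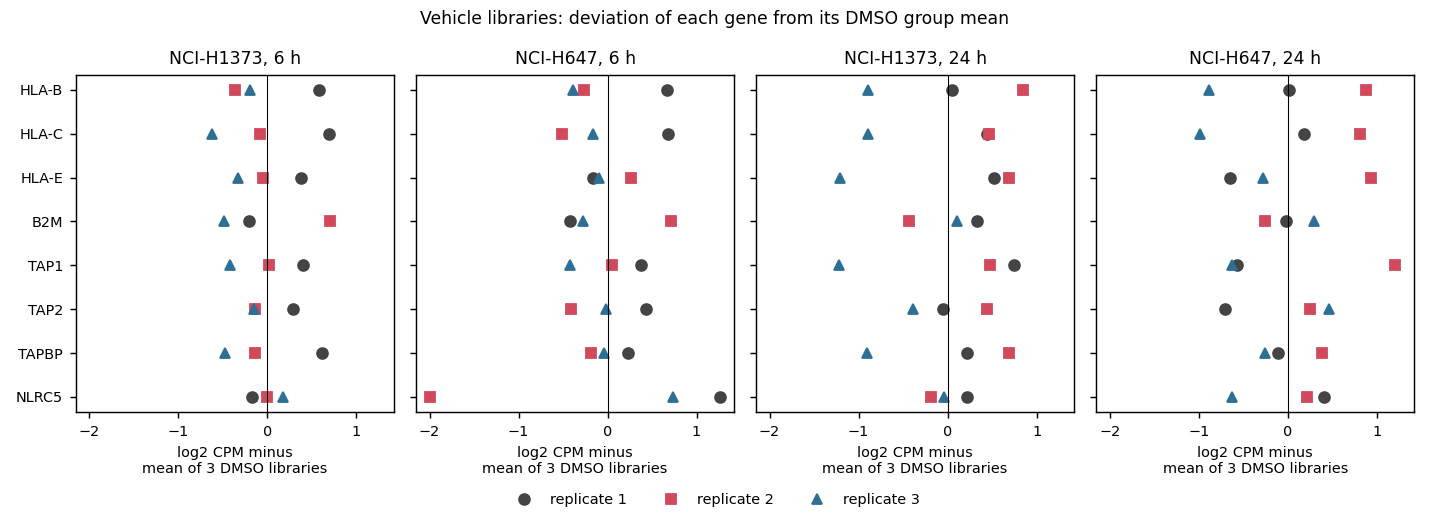
Deviation of each DMSO library from the mean of its 3 libraries in log2 CPM (horizontal axes) for the 8 members tested in both lines (vertical axis), for each line and time, with colour and shape for the replicate. At 24 h replicate 2 lies to the right and replicate 3 to the left for most genes. B2M in both lines, NLRC5 in NCI-H1373 and TAP2 and HLA-E in NCI-H647 are among those that lie otherwise.

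Dose was compared within each compound, which leaves the DMSO libraries out; this comparison was added after levels had been seen. At 24 h RBN-2397 at 300 nM minus 10 nM was above 0 for 7 of 8 members in NCI-H1373 and 9 of 9 in NCI-H647, with medians of 0.35 and 0.32 beside 0.00 over all genes in each. RBN012337 at 100 nM minus 3 nM was above 0 for 7 of 8 and 9 of 9, with medians of 0.25 and 0.34. Only the end doses were compared. For RBN012337 at 24 h in NCI-H647, HLA-B, HLA-C and TAP1 had means of 103, 223 and 27.8 CPM at 3 nM. At 10 nM these were 88.1, 190 and 25.1 CPM. The means of HLA-E, TAP2 and TAPBP were also lower at 10 nM, and those of HLA-F, B2M and NLRC5 higher. Because the members share libraries, the counts of members above 0 are a description. None was called in these 4 comparisons or in the 4 at 6 h by edgeR or by DESeq2, and 3 had an unadjusted edgeR p under 0.05: TAP1 after RBN012337 in NCI-H1373 at 6 h (0.67 ± 0.32, adjusted p = 0.534) and at 24 h (0.76 ± 0.31, adjusted p = 0.251), and HLA-E at 24 h (0.67 ± 0.27). Of all genes, RBN012337 at 24 h in NCI-H1373 called 0.125% and the other 7 dose comparisons 0%. The 2 compounds share the dose of 10 nM. There RBN-2397 minus RBN012337 called 0 members in the 4 line and time pairs, with 0% of all genes called in each and none by DESeq2. The adjusted p was 1 for every member, and the unadjusted edgeR p was under 0.05 once, for TAP2 at 24 h in NCI-H647 (0.84 ± 0.37, 95% interval 0.09 to 1.60). For the other members the intervals stay wide, as for NLRC5 at 24 h in NCI-H1373 (1.08, from -0.07 to 2.23) and HLA-B there (0.11, from -0.48 to 0.71).

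Between 6 and 24 h came the clearest change of the family, a rise of TAP1 in treated cells. Time in culture and time with compound cannot be told apart in them. Over the 18 treated libraries at each time, TAP1 went from 8.09 to 22.9 CPM (median 16.2) at 6 h to 15.2 to 48.1 CPM (median 27.4) at 24 h in NCI-H1373. In NCI-H647 it went from 10.2 to 17.5 CPM (median 12.8) to 17.0 to 69.9 CPM (median 30.0), where 1 library at 24 h was under the highest at 6 h. The log2 difference was 0.85 ± 0.13 (adjusted p = 2.36e-06) and 1.39 ± 0.18 (adjusted p = 7.62e-07). NLRC5 rose by 0.63 ± 0.22 and 0.92 ± 0.23 (adjusted p = 0.0253 and 0.0047) and B2M by 0.31 ± 0.10 and 0.30 ± 0.09 (adjusted p = 0.013 and 0.0205). TAP2 fell by 0.40 ± 0.13 in NCI-H1373 (log2 difference -0.40, adjusted p = 0.015) and was at 0.03 ± 0.15 in NCI-H647. This comparison was also added after levels had been seen. It called 4 of 8 members in NCI-H1373, among 35.1% of all genes, and 3 of 9 in NCI-H647, among 13.7%. HLA-B in NCI-H1373, at 0.29 (adjusted p = 0.054), was not called, but DESeq2 (0.30, adjusted p = 0.043), its size factors in edgeR (adjusted p = 0.0446) and the replicate block (adjusted p = 0.0203) called it.

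The call of TAP1 held when each replicate number was left out at either time, in both lines, and the calls of NLRC5, B2M and TAP2 did not. NLRC5 in NCI-H647 was at 0.51 (adjusted p = 0.206) without the 24 h libraries of replicate 3 and in NCI-H1373 at 0.52 (adjusted p = 0.13) without those of replicate 1. B2M in NCI-H1373 was at 0.18 (adjusted p = 0.194) without the 24 h libraries of replicate 1, and TAP2 at -0.29 (adjusted p = 0.153) without the 6 h libraries of replicate 1. In DMSO, with 3 libraries at each time, TAP1 differed by 0.60 ± 0.32 in NCI-H1373 and by 1.04 ± 0.45 in NCI-H647 (adjusted p = 0.256 and 0.356). Vehicle 24 h minus 6 h called 0 of 8 members among 9.12% of genes in NCI-H1373 and 0 of 9 among 0.284% in NCI-H647, none by DESeq2, with 1 unadjusted edgeR p under 0.05, that of TAP1 in NCI-H647.

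Whether the response to treatment itself differed between the times was tested directly. For 24 h minus 6 h, 0 of 8 members were called in NCI-H1373 (0.53% of genes) and 0 of 9 in NCI-H647 (0%), none by DESeq2 and none with an unadjusted edgeR p under 0.05. The difference for TAP1 was 0.25 ± 0.35 in NCI-H1373 and 0.35 ± 0.48 in NCI-H647, and for NLRC5 -0.19 ± 0.64 and 0.94 ± 0.64. The intervals for TAP1 ran from -0.46 to 0.96 and from -0.62 to 1.32. The rise of TAP1 with time is therefore shown in treated cells. In vehicle a change of TAP1 with time was not called, and treated and vehicle cells were not shown to differ in it.

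The lines differed in 3 members, whether or not they were treated. HLA-C was lower in NCI-H1373, with a median of 49.7 CPM over 42 libraries (22.5 to 78.2) against 210 CPM (76.4 to 334) in NCI-H647, and 1 DMSO library of NCI-H647 lay within the range of NCI-H1373. In DMSO the log2 difference NCI-H1373 minus NCI-H647 was -1.81 ± 0.21 (adjusted p = 6.31e-11). TAP2 was higher in NCI-H1373, with a median of 13.4 CPM against 4.61 CPM, a difference of 1.31 ± 0.25 (adjusted p = 9.72e-06). B2M was also higher there, at 1638 CPM against 822 CPM, a difference of 0.91 ± 0.17 (adjusted p = 5.44e-06). The DMSO comparison called these 3 of 9 members, among 45.3% of all genes.

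In the treated libraries, a comparison added after levels had been seen, HLA-C differed by -2.16 ± 0.09, TAP2 by 1.48 ± 0.10 and B2M by 1.01 ± 0.07, and 4 of 9 members were called, among 74.8% of all genes. The fourth was HLA-B at 0.19 ± 0.09 (adjusted p = 0.0488), a call that DESeq2 did not make (0.14, adjusted p = 0.162). NLRC5, at -0.33 (adjusted p = 0.0649), was called by DESeq2 (-0.39, adjusted p = 0.0291). HLA-E, TAP1 and TAPBP were at 0.02, 0.04 and 0.07 on the log2 scale. HLA-B and HLA-C are the members with the largest shares of words in common with other genes (15.7% and 19.3%), and the part of shared reads in the difference between lines was not tested. The response to treatment was not called different between the lines for any of 9 members at 6 h (0% of genes) or 24 h (0.47%), none by DESeq2 and none with an unadjusted edgeR p under 0.05.

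**Figure D5:**
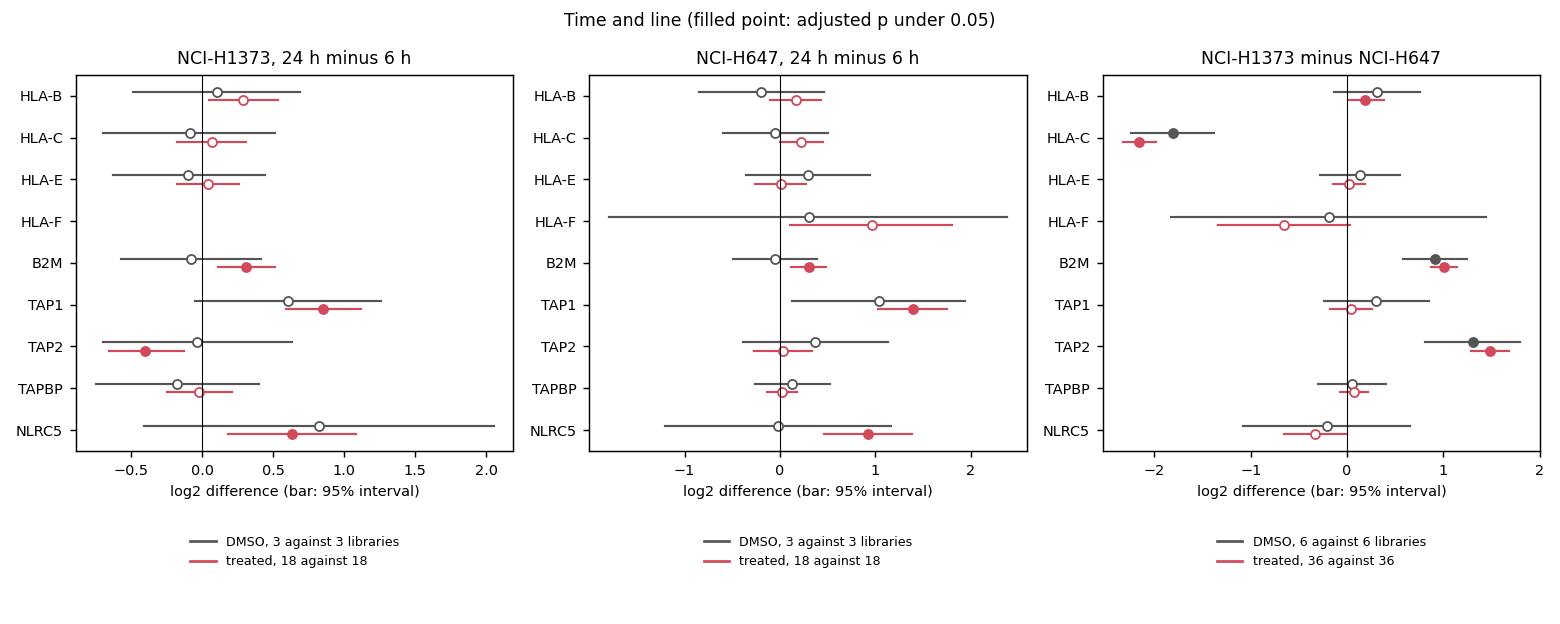
Log2 differences (horizontal axes) of each member (vertical axes) for 24 h minus 6 h in NCI-H1373 and in NCI-H647 and for NCI-H1373 minus NCI-H647, in DMSO and in treated libraries; bars are 95% intervals and filled points passed the test. TAP1 in treated cells (0.85 and 1.39) and HLA-C between lines (-1.81 and -2.16) are filled.

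The steps before and around peptide loading were read from lists of related genes. All 13 genes for the immunoproteasome and peptide trimming were tested. With the 6 treatments averaged, their median log2 difference at 24 h in NCI-H1373 was 0.47, beside -0.01 over all genes. There 12.1% of all genes were called, and 5 of the 13 were called higher than DMSO. They were PSMB8 (0.97 ± 0.27, adjusted p = 0.0153) and PSMB9 (0.76 ± 0.24, adjusted p = 0.0292), catalytic subunits of the immunoproteasome, ERAP1 (1.16 ± 0.35, adjusted p = 0.0242), which trims peptides in the endoplasmic reticulum, and the cytosolic aminopeptidases LAP3 and NPEPPS (0.75 ± 0.24 and 0.62 ± 0.16). PSMB8 held 66.2, 59.8 and 53.7 CPM in DMSO and 151, 176 and 184 CPM after RBN-2397 at 300 nM, without overlap. RBN012337 at 100 nM gave 66.5, 51.9 and 158 CPM, which overlap DMSO. From 6 to 24 h the DMSO mean of PSMB8 went from 115 to 59.9 CPM and that of ERAP1 from 8.97 to 2.85 CPM. Treated means of PSMB8 ran from 98.7 to 122 CPM at 6 h and from 92.2 to 170 CPM at 24 h. Those of ERAP1 ran from 4.79 to 8.97 CPM and from 6.43 to 9.06 CPM. Treated means of PSMB9 were higher at 24 h (75.4 to 109 CPM) than at 6 h (45.2 to 61.4 CPM). The part of the lower DMSO level in these differences was not tested. PSMB9 shares its promoter region with TAP1, which was at 0.10 ± 0.25 in the same comparison, and whether the 2 genes differ was not tested. In NCI-H647 the list median was 0.18 beside -0.02. There 4.98% of all genes were called, and 1 of the 13 was called higher, PSMB8 (0.78 ± 0.22, adjusted p = 0.0363). These counts rest on the DMSO libraries: in NCI-H1373 they were 0, 1 and 2 without DMSO replicate 1, 2 or 3. PSMB8 was then at 1.01, 0.95 and 0.91 and lost its call each time (adjusted p = 0.101, 0.0729 and 0.0509). The calls over all genes, 787 higher and 772 lower with every library, went to 132 and 107, 389 and 485, and 1007 and 1037. In NCI-H647 PSMB8 lost its call without replicate 2 or 3 (0.78 and 0.64). ERAP1 in NCI-H1373 kept its call in 2 of 11 alternative fits.

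Of the transcription factors that act on class I promoters, 2 are described at 24 h with the 6 treatments averaged, in NCI-H1373 and NCI-H647 in that order, and neither was called. RFX5, a subunit of the complex that NLRC5 works with, was at -0.34 ± 0.23 and -0.30 ± 0.25. IRF1, an interferon-induced activator chosen for mention after its values were seen, was at 0.14 ± 0.26 and -0.05 ± 0.22.

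Of 10 chaperones of class I folding, 9 were tested in NCI-H1373 and 1 fell, beside 12.1% of all genes called: SEC62, a translocation factor of the endoplasmic reticulum (-0.52 ± 0.16, adjusted p = 0.0244). SEC62 lost its call without DMSO replicate 1 or 3 (-0.48 and -0.39, adjusted p = 0.189 and 0.154). None was called in NCI-H647, beside 4.98%. CALR, which encodes calreticulin of the loading complex, was at 0.40 ± 0.16 and 0.44 ± 0.14 (adjusted p = 0.102 and 0.061). The 3 catalytic subunits of the constitutive proteasome had no call. Among 13 other class I-like genes, 7 tested in NCI-H1373 and 10 in NCI-H647, 2 stress ligands of the NKG2D receptor fell, 1 in each line, beside 12.1% and 4.98% of all genes called: MICA in NCI-H1373 (-1.35 ± 0.28, adjusted p = 0.00166) and ULBP2 in NCI-H647 (-0.96 ± 0.23, adjusted p = 0.0104). MICA was at -0.50 ± 0.29 in NCI-H647 (adjusted p = 0.348). MICA kept its call without each DMSO library in turn, lost it without all libraries of replicate 1 or 2 (-1.35 and -1.11, adjusted p = 0.0827 and 0.0725), and ULBP2 lost its call without replicate 2 or 3 (-0.59 and -0.78). From a list of 10 class II genes, none of those tested was called in either line. In NCI-H647 only CIITA, HLA-DMA and CD74 were tested. CIITA, the class II relative of NLRC5, was at 1.04 ± 0.36 in NCI-H1373 (adjusted p = 0.0548). At 6 h these 6 lists held 1 call, beside 1.16% of all genes called in NCI-H1373 and 0.0135% in NCI-H647. It was HSPA5, a chaperone of the endoplasmic reticulum named after its value was seen, which fell in NCI-H1373 (-0.74, adjusted p = 0.0483).

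Epithelial markers moved with treatment at 24 h as well. In NCI-H1373 KRT7, KRT8, KRT18, KRT19 and EPCAM were called higher, 5 of the 7 tested, by 0.39 to 1.52 on the log2 scale, beside 12.1% of all genes called. In NCI-H647, beside 4.98% of all genes called, KRT7 was called, 1 of 5 tested (2.13 ± 0.57, adjusted p = 0.0293). The endothelial marker PECAM1 was called there as well (1.65 ± 0.41, adjusted p = 0.0129). These marker calls were not followed through the leave-outs. The summed CPM of the 4 endothelial markers in NCI-H647 ran from 1.23 to 9.52 in DMSO and from 2.59 to 9.52 in treated libraries, with VWF at a median of 0. The part of these markers in the values of the class I genes was not tested.

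Across the 28 group means, centred within each line, 5 genes outside the family followed the members' mean profile most closely among 12240 compared. They were CNP (Pearson r = 0.87), IRF7 (0.85), PARP12 (0.85), IFI35 (0.84) and TRIM25 (0.83). The members' own values against that mean, which contains them, were 0.87 for TAP1 and NLRC5, 0.82 for HLA-C, 0.78 for HLA-B, 0.53 for TAPBP, 0.45 for HLA-E, 0.43 for B2M and 0.07 for TAP2. Each group mean pools 3 libraries, and genes of a library share its depth and scaling, so these are descriptions without a test. TAP1, NLRC5, HLA-C and HLA-B followed the mean most closely, and TAP2 the least.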

How the data were processed

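RNA of 2 cell lines was read in 84 libraries, as 3' digital gene expression with paired ends, per the labels' protocols. The authors deposited 1 table of estimated counts per gene, made with Salmon on hg38, per the submitters' processing notes. The annotation, the use of strand and the handling of molecular identifiers have no statement in the labels or notes, so antisense and overlapping genes may share reads. Of the values above 0, 49.4% were not whole, and counts were rounded. Of 57964 gene IDs, 57845 matched GENCODE 29 symbols.

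The 42 libraries of each line were fitted with edgeR 4.0.16 in R 4.3.3 (quasi-likelihood F test, robust, trimmed-mean scaling, genes kept by filterByExpr). Comparisons of lines used all 84. P-values are two-sided and were adjusted by Benjamini-Hochberg over all tested genes of a comparison, with calls at 0.05. Values after ± are standard errors for log2 differences and standard deviations (n = 3) for CPM. CPM used scaled library sizes, and log2 CPM a prior count of 2. The method was tested on simulated data with the same spread in all groups, which does not cover the wider DMSO spread described above. Intervals cover the spread of libraries pooled over the groups of a fit, and limits for 0 counts (3 counts) cover counting error.

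Of each related list, up to 4 genes by smallest adjusted p at 24 h in each line were open to naming, and not all of them are described. By similarity of profile 5 genes were named. The members and lists were chosen with earlier results of these data known. Alternatives were DESeq2 1.42.0, its size factors in edgeR, no filter, a replicate block, the 7 groups of a line and time alone, and each replicate left out. One gene of the transcription factor list and 1 of the motifs searched are not reported here.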

Additional observations from a re-analysis of the deposited data

How the results depend on the processing

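Calls of members against DMSO depended on the tool and on single DMSO libraries. With the 6 treatments averaged, DESeq2 and the fit without a filter each called 1 member at 6 h in NCI-H647 (B2M), and leaving out a replicate gave 0 to 1 calls at each time in each line. For single treatments DESeq2 called 1 at 6 h in NCI-H647 and the fit without a filter 1 at 24 h there (HLA-B after RBN-2397 at 300 nM). Leave-outs gave 0 to 2 calls at 24 h in NCI-H1373, 0 to 1 at 6 h and 0 to 3 at 24 h in NCI-H647. Treated 24 h minus 6 h kept 2 to 3 of 4 calls in NCI-H1373 and gave 1 to 4 against 3 in NCI-H647, and the DMSO comparison of lines gave 3 to 5 against 3.

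The replicate block was fitted although the numbers did not pair the libraries by the rule used (the lowest correlation of same-numbered libraries was 0.02 and 0.01 in NCI-H1373 and -0.05 and -0.04 in NCI-H647, at 6 and 24 h). In each set of 21 libraries, 20 or 21 lay closest to their own number. The labels do not explain this pattern, and the main fit leaves it out. Depth went with the number too: at 24 h in NCI-H1373 replicate 1 held 2868221 to 5456093 counts and replicate 2 1333934 to 1622874. With treatments averaged at 24 h in that line, the block called 1157 genes higher and 1151 lower, beside 787 and 772 without it. With the replicate block 1 member (B2M, -0.46) was called at 6 h in NCI-H1373 with treatments averaged, and 2 single treatments there (B2M, -0.62 in each).

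Some values changed sign between settings, and the values of changed sign were not called. In log2 units, TAPBP for treated 24 h minus 6 h in NCI-H1373 was at 0.01 with the block, and TAPBP between DMSO lines at -0.0016 with DESeq2 and -0.01 with its size factors. Between treated lines HLA-E was at -0.04 with both and at -0.003 without a filter, and TAP1 at -0.03 and -0.02. Leaving out a replicate gave, for the averaged treatments at 6 h in NCI-H1373, HLA-B -0.13 to 0.47, HLA-C -0.38 to 0.31, TAP1 -0.33 to 0.10, TAPBP -0.17 to 0.41. At 24 h in that line it gave HLA-C -0.22 to 0.24, HLA-E -0.53 (called, adjusted p = 0.039, without DMSO replicate 3) to 0.10, B2M -0.30 to 0.07, TAP1 -0.17 to 0.38, TAP2 -0.30 to 0.28, TAPBP -0.09 to 0.61. In NCI-H647 it gave at 6 h HLA-B -0.13 to 0.54, HLA-C -0.12 to 0.55, HLA-E -0.10 to 0.14, HLA-F -0.61 to 0.09, TAP1 -0.19 to 0.37, TAP2 -0.04 to 0.36, NLRC5 -0.34 to 0.63, and at 24 h HLA-C -0.04 to 0.96, HLA-E -0.66 to 0.36, HLA-F -0.47 to 1.75, TAP1 -0.23 to 1.45, TAPBP -0.16 to 0.25. For treated 24 h minus 6 h it gave HLA-C -0.09 to 0.19, HLA-E -0.05 to 0.12, TAPBP -0.16 to 0.09 in NCI-H1373 and HLA-E -0.19 to 0.20, TAP2 -0.05 to 0.08, TAPBP -0.06 to 0.08 in NCI-H647. Between lines it gave HLA-E -0.06 to 0.46, HLA-F -0.71 to 0.39, TAPBP -0.22 to 0.18, NLRC5 -0.39 to 0.06 in DMSO and HLA-E -0.11 to 0.14, TAP1 -0.07 to 0.21, TAPBP -0.03 to 0.12 in treated libraries. The cause was not tested. A leave-out refits the filter, so the genes tested change with it. Depth limits HLA-F and NLRC5 most, with 353 and 1267 counts in all.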
